A study of Mus musculus with 12 samples.

Results

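The 40 genes described here make cholesterol and fatty acids, or control that synthesis, in N9 microglia. They were chosen by gene symbol, as 17 enzymes of the sterol branch, 6 regulators and sterol carriers, and 17 genes of fatty acid synthesis, desaturation, elongation, activation and storage, out of 54532 genes in the count table. N9 is an immortalised mouse line of microglia, the resident macrophages of the brain. The series asks how microglia use sugars in relation to Alzheimer disease, and measured gene expression by RNA sequencing in 4 groups of 3 libraries. The first group was kept in control medium, a glucose-free base supplied with 3 mM glucose and 5 mM fructose, for 18 h. The second had the same medium followed by lipopolysaccharide (LPS, the bacterial endotoxin that macrophages sense through Toll-like receptors) at 1 µg/ml for 6 h. A further 6 h is not listed for the first group, so any difference in total time cannot be told apart from LPS. The other two had medium with 15 mM glucose or with 15 mM fructose for 18 h and the same LPS treatment. Both are listed with the same base of 3 mM glucose and 5 mM fructose, so the sugars were raised from unlike levels. No raised-sugar group without LPS and no osmotic control is among the samples, and the labels leave unstated whether 15 mM is the final concentration or an addition. Nor do they say that replicate libraries were grown as independent cultures, so p-values reflect the scatter of these libraries and that scatter may be purely technical.

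Cholesterol is built from acetyl-CoA through mevalonate, isoprenoid diphosphates, squalene and lanosterol. Fatty acids are built from the same acetyl-CoA, which ATP-citrate lyase (Acly) releases from citrate, and are then desaturated, elongated, activated with coenzyme A and either used in membranes or stored in lipid droplets. Both branches are controlled by the sterol regulatory element-binding proteins (SREBPs, encoded by Srebf1 and Srebf2), which the escort protein Scap carries from the endoplasmic reticulum to the Golgi for cleavage unless sterols make the Insig proteins hold them back. Macrophages are known to remodel this synthesis during inflammatory activation.

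Total counts per library were 15453776 to 17956772, and all 40 genes passed the filter on low counts, among 12766 genes tested. Tnf, a cytokine gene that LPS induces, was higher with LPS in control medium by 3.87 ± 0.07 on the log2 scale (standard error, SE; edgeR adjusted p = 3.71e-17). The 14 microglia markers summed to 2110 to 2380 CPM (counts scaled per library) in the 12 libraries. Csf1r, Cd68 and Ptprc were abundant, whereas the markers of resident brain microglia Sall1 and P2ry12 had 0 to 1 and 1 to 6 counts per library. Reads of genes foreign to microglia stood apart in single libraries: albumin (Alb) had 934 counts in the first fructose library, 106 and 348 in the second and the third glucose libraries, 155 and 292 in the second and the third control libraries and 0 to 8 in the rest. Collagen reads also differed between libraries of a group, with Col1a1 at 70, 3 and 49 counts in control medium, 40, 3 and 1 with LPS, 1, 1 and 41 in high glucose and 59, 114 and 3 in high fructose. Of 19 tested markers of cell types other than microglia, 5 were higher and 4 lower with LPS. Of all genes tested, 15.2% were higher and 13.6% lower. Their part in the results was not tested. The 6 hepatocyte or adipocyte markers summed to 77.7 to 165 CPM, most of it Fabp4 (1253 to 1926 counts), while the adipocyte markers Adipoq and Lep had 0 to 1 counts.

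Promoter sequence is shown for 5 members because SREBPs bind sterol regulatory elements close to start sites together with NF-Y at CCAAT boxes and Sp1 at GC boxes. RefSeq windows on GRCm38.p6 held 31 of the 40 members, and the 250 bases upstream of each start were searched on both strands. The sterol regulatory element (SRE) was searched as TCACNCCAC. Its core, which can overlap it, was searched as CACCCCAC. The CCAAT box was searched by its own letters, the GC box was searched as GGGCGG and the E-box as CACGTG. Hmgcs1 and Mvd are sterol enzymes that were lower with LPS, Acsl1 and Acly are fatty acid genes that were higher, and Fasn was not called. Capitals mark SRE, SRE core, CCAAT and E-box matches on either strand, and GC boxes are left in lower case. Each sequence runs 5′ to 3′ towards the start site on the gene's strand. The Hmgcs1 window is chr13:119690101-119690350 (plus strand), Mvd is chr8:122443423-122443672 (minus strand), the second of the Acsl1 start sites is chr8:46490716-46490965 (plus strand), Acly is chr11:100528001-100528250 (minus strand) and Fasn is chr11:120824548-120824797 (minus strand).
Hmgcs1: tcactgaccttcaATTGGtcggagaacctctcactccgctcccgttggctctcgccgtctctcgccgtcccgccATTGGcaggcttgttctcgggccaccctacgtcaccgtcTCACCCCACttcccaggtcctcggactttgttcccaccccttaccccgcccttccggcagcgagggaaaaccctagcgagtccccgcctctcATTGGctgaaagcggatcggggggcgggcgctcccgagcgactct
Mvd: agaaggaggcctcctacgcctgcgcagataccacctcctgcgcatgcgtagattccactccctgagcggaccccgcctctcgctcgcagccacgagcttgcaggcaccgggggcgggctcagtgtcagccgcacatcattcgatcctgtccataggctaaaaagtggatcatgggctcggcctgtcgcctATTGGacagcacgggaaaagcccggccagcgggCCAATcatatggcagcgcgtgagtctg
Acsl1: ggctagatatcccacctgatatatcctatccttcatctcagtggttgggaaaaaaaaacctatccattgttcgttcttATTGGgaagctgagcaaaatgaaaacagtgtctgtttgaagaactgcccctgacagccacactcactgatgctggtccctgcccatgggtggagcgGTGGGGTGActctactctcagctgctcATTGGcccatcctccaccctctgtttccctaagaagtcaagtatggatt
Acly: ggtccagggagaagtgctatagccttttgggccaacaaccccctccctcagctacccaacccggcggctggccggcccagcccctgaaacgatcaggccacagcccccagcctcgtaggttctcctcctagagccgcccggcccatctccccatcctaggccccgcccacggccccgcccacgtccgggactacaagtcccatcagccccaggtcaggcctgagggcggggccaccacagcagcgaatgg
Fasn: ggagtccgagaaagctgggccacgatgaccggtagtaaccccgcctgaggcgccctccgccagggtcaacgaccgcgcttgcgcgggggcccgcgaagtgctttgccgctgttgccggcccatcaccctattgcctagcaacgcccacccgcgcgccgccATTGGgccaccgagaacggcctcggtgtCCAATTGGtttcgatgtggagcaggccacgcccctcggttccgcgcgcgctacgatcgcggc
The Hmgcs1 window held an SRE and 3 CCAAT boxes, the Acsl1 window an SRE and 2 CCAAT boxes, Mvd 2 CCAAT boxes and Fasn 3. The other Acsl1 window (chr8:46470787-46471036), which ends directly before the gene's start in the count table, held 4 GC boxes and neither an SRE nor a CCAAT box. The Acly window held 4 GC boxes and none of the other motifs.

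A gene was counted as holding a motif where any of its windows did. Across the members with a window, CCAAT was present in 13 of 14 sterol enzymes (92.9%), 4 of 5 regulators and 7 of 12 fatty acid genes (58.3%), against 41.0% of the 9329 tested genes that have a window. GC boxes were present in 13 of 14 sterol enzymes, 5 of 5 regulators and 6 of 12 fatty acid genes, against 63.8% of tested genes. An SRE was found in 1 of 14 sterol enzymes (Hmgcs1) and 1 of 12 fatty acid genes (Acsl1), against 1.2%. The SRE core was found in 2 of 14 sterol enzymes and 1 of 12 fatty acid genes, against 3.2%, and the E-box in 3 of 14, 2 of 5 and 1 of 12, against 10.1%. A match describes letters in this window only. Members without a window in the table were Fdps, Fdft1, Sqle, Stard4, Scd1, Scd2, Fads1, Dgat1 and Dgat2.

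Levels per gene length, in fragments per kilobase scaled to the library (FPKM), spanned a wide range in control medium without LPS. Scd2, a stearoyl-CoA desaturase that makes monounsaturated fatty acids, was highest at 442 ± 10.8 FPKM (SD, n = 3), and its relative Scd1 stood at 73.2 ± 2.96 FPKM. The fatty acid desaturases Fads2 and Fads1, which act on polyunsaturated fatty acids, were at 147 ± 5.40 and 117 ± 1.52 FPKM. Their place in the order depends on the length used: the table gives Fads2 1508 bases and Fads1 3456, whereas GENCODE M21 has 3295 and 4812 exonic bases, at which they would be at 67.4 and 84.1 FPKM. Elovl1, an elongase of long saturated chains, was at 90.6 ± 2.30 FPKM and Acly at 79.7 ± 4.19 FPKM. The most abundant sterol enzymes were the lanosterol demethylase Cyp51 (78.3 ± 0.50 FPKM) and the squalene epoxidase Sqle (76.6 ± 1.09 FPKM), which did not differ beyond their spread. At the low end were Fdps (1.79 ± 0.27 FPKM), the triglyceride-forming enzyme Dgat1 (4.35 ± 0.23 FPKM) and Insig2 (6.92 ± 0.85 FPKM). Srebf2, at 55.1 ± 2.43 FPKM, was above Srebf1, at 37.7 ± 0.79 FPKM, and Insig1, at 66.3 ± 0.46 FPKM, was above Insig2 without overlap between libraries.

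**Figure D1:**
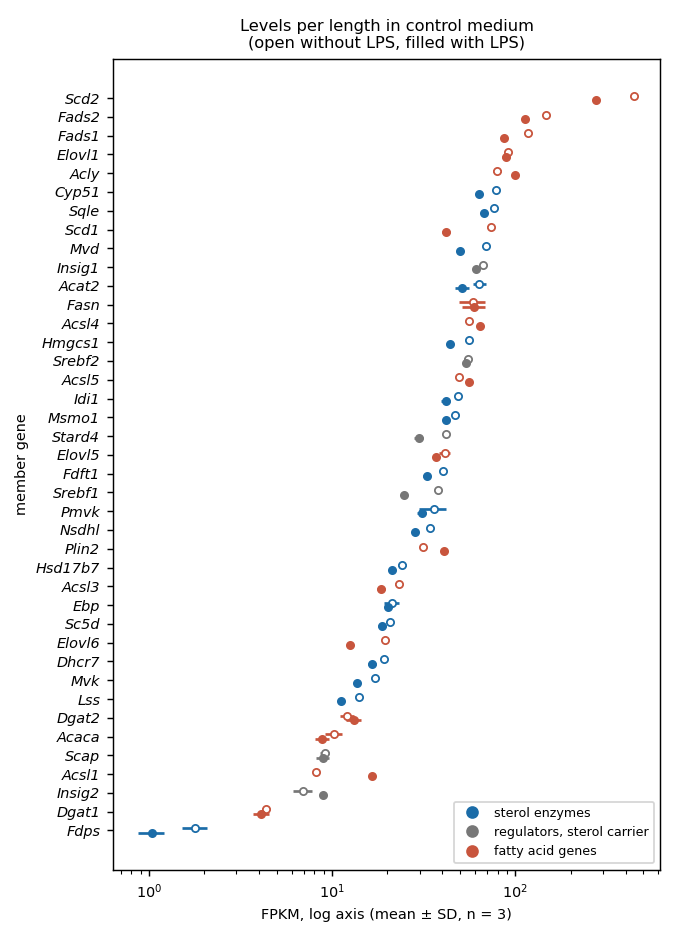
Mean level per gene length (FPKM, log axis, bars SD, n = 3) of the 40 members in control medium without LPS (open) and with LPS (filled), ordered by the level without LPS. Scd2 is highest at 442 FPKM and Fdps lowest at 1.79 FPKM, and most blue points (sterol enzymes) move to the left with LPS.

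Fdps, the farnesyl diphosphate synthase, is reported as uncertain. In GENCODE M21 (GRCm38), 91.4% of its coding transcript matched another gene at 98% identity or more, chiefly Gm43738, which also overlapped 26.7% of its exonic bases on the same strand. Acaca, the acetyl-CoA carboxylase that commits carbon to fatty acids, is uncertain for the same kind of reason, with 64.3% of its coding transcript matching Gm5182. For Idi1 the matched share was 33.3%. Exons of Fdft1, Scap, Hmgcs1, Acsl1, Idi1 and Acsl5 overlapped a gene on the other strand over 8.31% to 18.3% of their bases, and whether the counting used strand is not given here.

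With LPS in control medium, 14 of the 17 sterol enzymes fell and none rose (edgeR quasi-likelihood test, Benjamini-Hochberg adjusted p below 0.05 over all 12766 genes). Of all genes tested, 28.8% were called in this comparison, 13.6% lower and 15.2% higher. The median log2 fold change of the 17 was -0.28, against -0.004 over all genes tested, and every one of the 17 had a negative value, from -0.79 to -0.06. In 15 of the 17 the 3 LPS libraries lay below the 3 libraries without LPS, a separation that 21.8% of tested genes showed in that direction. Over the 40 members, 25 were separated downward and 6 upward, against 44.3% of all genes in either direction and 22.6% upward. In bulk RNA, fewer cells of a kind and less RNA per cell cannot be told apart. The other 3 enzymes of the branch were not called. Those were Pmvk, phosphomevalonate kinase (-0.21 ± 0.11, edgeR adjusted p = 0.153), Ebp, a sterol isomerase (-0.06 ± 0.07, adjusted p = 0.591), and Sc5d, a sterol desaturase (-0.14 ± 0.06, adjusted p = 0.093).

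**Figure D2:**
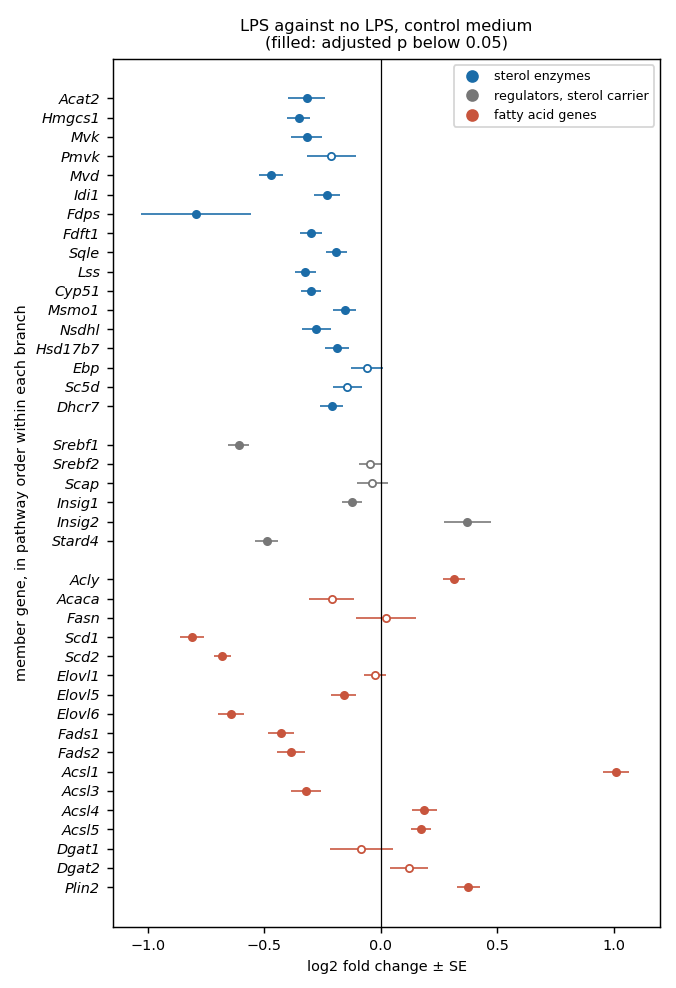
Log2 fold change (± SE) of each member with LPS against no LPS in control medium, in pathway order within each branch; filled points have an edgeR adjusted p below 0.05. The sterol enzymes all lie left of 0, whereas fatty acid genes run from -0.81 (Scd1) to 1.01 (Acsl1).

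The first steps of the pathway were among those that fell. Acat2, which joins acetyl-CoA units, fell by 0.32 ± 0.08 on the log2 scale (adjusted p = 0.00479). Hmgcs1, the synthase that makes hydroxymethylglutaryl-CoA, was at 251.9, 268.0 and 255.0 CPM in the 3 control libraries and at 196.3, 205.8 and 205.3 CPM with LPS. All 3 LPS libraries lay below all 3 controls, and the fall was 0.35 ± 0.05 (adjusted p = 2.28e-05). In the mevalonate steps, Mvk, mevalonate kinase, fell by 0.32 ± 0.07 (adjusted p = 0.00151). Mvd, the mevalonate diphosphate decarboxylase, was at 134.3, 126.8 and 127.1 CPM without LPS and 91.20, 92.68 and 95.79 CPM with it. Those groups did not overlap, and at -0.47 ± 0.05 (adjusted p = 1.17e-06) Mvd had the smallest adjusted p of the 17 enzymes. Idi1, the isopentenyl diphosphate isomerase, fell by 0.23 ± 0.06 (adjusted p = 0.00429).

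Fdps showed the most negative value of the branch, on few reads. It was at 7.05, 8.89 and 6.81 CPM without LPS and 3.66, 4.36 and 5.08 CPM with LPS. The groups did not overlap and the fall was 0.79 ± 0.24 (edgeR adjusted p = 0.0164), but the adjusted p was 0.079 without the second control library, 0.075 without the first LPS library and 0.0502 without the second. Fdft1, the squalene synthase, fell by 0.30 ± 0.05 (adjusted p = 0.000113) and Sqle by 0.19 ± 0.04 (adjusted p = 0.00316).

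Among the enzymes that close and trim the sterol ring, Lss, lanosterol synthase, was at 147.3, 156.6 and 149.3 CPM in the controls and 118.8, 121.1 and 122.1 CPM with LPS. Its libraries separated completely, with a fall of 0.32 ± 0.05 (adjusted p = 2.61e-05). Cyp51 went from 349.5, 344.6 and 347.7 CPM to 290.7, 278.1 and 277.5 CPM, again without overlap, a fall of 0.30 ± 0.04 (adjusted p = 3e-05). Nsdhl, a dehydrogenase of sterol demethylation, fell by 0.28 ± 0.06 (adjusted p = 0.00198), and Dhcr7, the reductase of the last step, by 0.21 ± 0.05 (adjusted p = 0.00321). Smaller falls were measured for Hsd17b7, a sterol ketoreductase (-0.19 ± 0.05, adjusted p = 0.00975), and Msmo1, a methylsterol oxidase (-0.15 ± 0.05, adjusted p = 0.0222). Both were less firm: Hsd17b7 had an adjusted p of 0.0705 without the third control library, and Msmo1 of 0.0644 or 0.0602 without the second or the third control library and of 0.0503 or 0.0924 without the second or the third LPS library.

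The regulators split by gene. With LPS, 3 of 6 fell and 1 rose, and the median was -0.08. Srebf1, which encodes the SREBP known mainly for fatty acid genes, was at 210.0, 218.3 and 212.2 CPM without LPS and at 137.6, 143.3 and 138.6 CPM with LPS. The LPS values were all lower and close together, and the fall was 0.61 ± 0.04 (edgeR adjusted p = 5.59e-09). Srebf2, which encodes the SREBP known mainly for sterol genes, spanned 378.3 to 411.1 CPM without LPS and 375.9 to 393.0 CPM with it. The Srebf2 ranges overlapped, at -0.05 ± 0.05 (adjusted p = 0.544), and the escort gene Scap was likewise not called at -0.04 ± 0.07 (adjusted p = 0.733).

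Stard4, a carrier that moves sterol between membranes, stood at 234.6, 235.4 and 229.9 CPM in the controls and 159.7, 161.5 and 177.0 CPM with LPS. Every LPS library was lower, by 0.49 ± 0.05 on the log2 scale (adjusted p = 4.82e-07). The retention factor genes moved apart. Insig2 was at 20.98, 24.59 and 26.85 CPM without LPS and 32.47, 30.32 and 30.93 CPM with LPS, a rise of 0.37 ± 0.10 without overlap (adjusted p = 0.00939), which was 0.28 without the first control library (adjusted p = 0.0631). Insig1 was at 207.8, 205.0 and 205.5 CPM and then at 193.8, 190.8 and 183.5 CPM. That fall of 0.12 ± 0.04 did not overlap between groups (adjusted p = 0.0392), yet it was called in only 1 of 6 fits that left out a library (adjusted p up to 0.17), the one without the first LPS library.

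**Figure D3:**
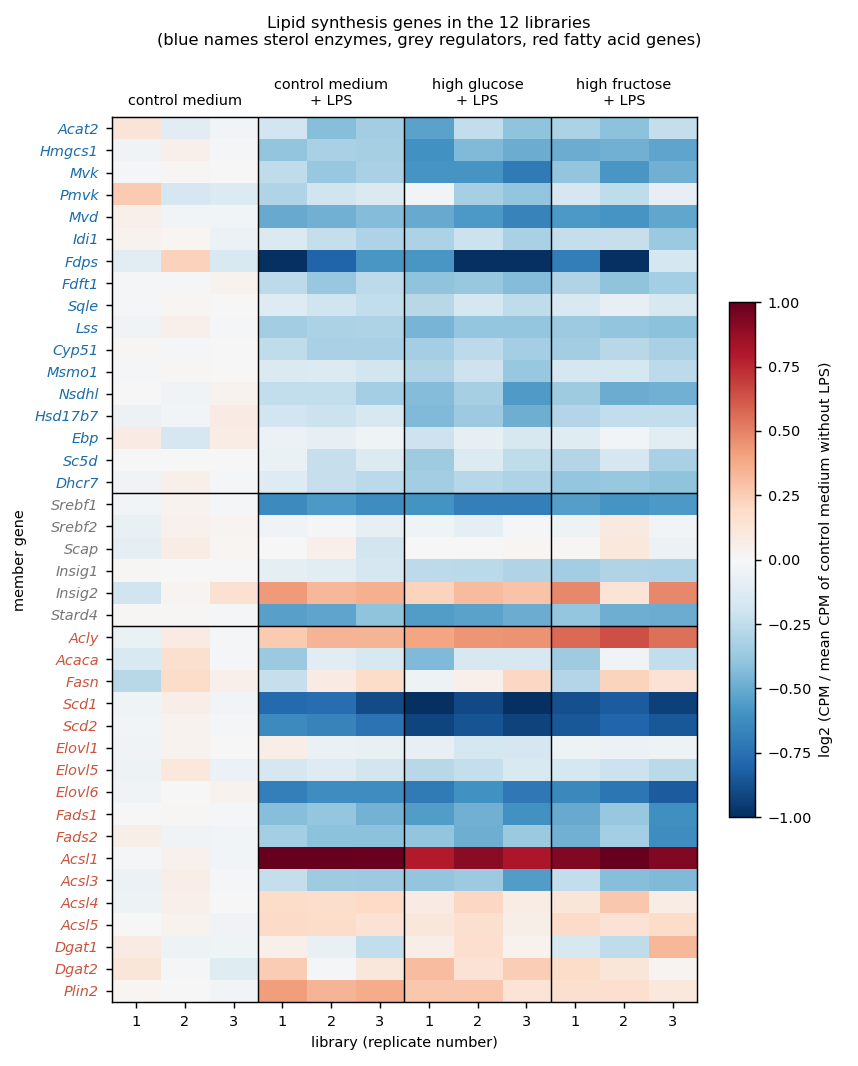
Level of each member in the 12 libraries as log2 of CPM over the mean of the 3 control libraries without LPS (colours end at -1 and 1; rows are genes, columns libraries). The blue block of sterol enzymes is present in all 9 LPS libraries, and in the fatty acid rows the desaturases and Elovl6 are blue while Acly, Acsl1 and Plin2 are red.

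Fatty acid genes did not move as a block. With LPS, 5 of 17 rose and 7 fell, and their median was -0.08. Without any scaling factor beyond the library total the split was 3 higher and 8 lower, and with upper-quartile factors it was 4 and 8. Of the 3 genes that make palmitate from citrate, Acly rose: it was at 403.7, 446.8 and 418.8 CPM without LPS and 508.3, 535.6 and 534.8 CPM with it. The groups did not overlap, at 0.31 ± 0.05 (adjusted p = 3.78e-05).

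Acaca was at 157.4, 195.2 and 172.8 CPM without LPS and 135.5, 161.9 and 156.6 CPM with it. The ranges overlapped, and at -0.21 ± 0.10 Acaca was not called (adjusted p = 0.116). It was called when the first control library was left out (-0.29, adjusted p = 0.0486). Fasn, the fatty acid synthase itself, was at 532.1, 733.5 and 670.0 CPM without LPS and 549.0, 683.1 and 734.1 CPM with LPS. The overlap was nearly complete, at 0.02 ± 0.13 (adjusted p = 0.921), and the sign turned negative with upper-quartile factors, with library totals and without any of 3 libraries (the first control and the second and the third LPS libraries).

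A pattern by library number, chosen after its values were seen, touched both genes. Fasn and Acaca were lowest in the library numbered 1 in all 4 groups, as were 674 of the tested genes (5.28%), against 3.08% lowest in the library numbered 2 in all groups and 1.36% in that numbered 3. Fasn varied by up to 18.1% (coefficient of variation) within a group. Fasn was at 527.5, 532.1, 549.0 and 623.2 CPM in the first fructose, control, LPS and glucose libraries. In the same order, those libraries had 934, 2, 2 and 2 albumin counts and 59, 70, 40 and 1 Col1a1 counts. A link of such reads with Fasn was not tested.

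The desaturases and elongases held 6 of the 7 fatty acid genes that fell, the other being Acsl3. Of the 7 genes in that class, 6 were lower and 0 higher, with a median of -0.43. Scd2 was at 2373, 2486 and 2409 CPM without LPS and 1557, 1524 and 1456 CPM with LPS. There was a wide gap between groups, and the fall of 0.68 ± 0.04 had the smallest adjusted p of all members (8.44e-11). Scd1 went from 345.6, 371.7 and 349.5 CPM to 207.5, 209.3 and 191.3 CPM. This was the largest fall of the 40 genes, 0.81 ± 0.05 (adjusted p = 1.11e-09), again with no overlap. In the table's coordinates Scd1 (chromosome 19, 44394451 to 44407709, minus strand) and Scd2 (44293676 to 44306864, plus strand) are close neighbours.

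Elovl6, which elongates palmitate to stearate, was at 122.8, 126.4 and 129.1 CPM and, with LPS, at 78.28, 81.94 and 82.17 CPM. It fell by 0.64 ± 0.05 without overlap (adjusted p = 4.93e-08). Fads1 was at 408.1, 411.0 and 401.4 CPM without LPS and 302.6, 311.3 and 292.7 CPM with it. All LPS libraries were lower, by 0.43 ± 0.05 (adjusted p = 8.09e-06), and Fads2, its neighbour on chromosome 19, fell by 0.39 ± 0.06 (adjusted p = 9.12e-05). Elovl5, an elongase of polyunsaturated chains, fell by 0.16 ± 0.05 (adjusted p = 0.0358), a call lost without the second control library (0.194) or without any of the LPS libraries (0.0571 to 0.121). Elovl1 was not called (-0.02 ± 0.05, adjusted p = 0.756).

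All 4 long-chain acyl-CoA synthetases, which activate fatty acids with coenzyme A, were called, 3 higher and 1 lower. Acsl1 was at 85.47, 88.97 and 84.90 CPM without LPS and 177.7, 172.8 and 171.7 CPM with LPS. Every LPS library was far above the controls, and the rise of 1.01 ± 0.06 on the log2 scale (adjusted p = 9.81e-11) was the largest of the 40 genes. Acsl4, which favours polyunsaturated fatty acids, rose by 0.19 ± 0.05 (adjusted p = 0.0131) and Acsl5 by 0.17 ± 0.04 (adjusted p = 0.00545). The Acsl4 rise had an adjusted p of 0.0635 without the first control library, 0.0509 without the third, 0.0505 with upper-quartile factors and 0.178 with library totals, where Acsl5 had 0.152. Acsl3, the synthetase of lipid droplets and the endoplasmic reticulum, fell by 0.32 ± 0.07 (adjusted p = 0.00101).

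Of the storage genes, Plin2, which coats lipid droplets, was at 111.8, 111.0 and 108.5 CPM without LPS and 147.4, 139.6 and 142.7 CPM with LPS. It rose without overlap by 0.38 ± 0.05 (adjusted p = 9.71e-06). The diacylglycerol acyltransferase genes Dgat1 (-0.08 ± 0.14, adjusted p = 0.704) and Dgat2 (0.12 ± 0.08, adjusted p = 0.3) were not called. Of the 30 members called with LPS, 22 kept their call under all 15 alternative settings.

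Other genes of the same pathways or related to them, from lists of neighbours, were also tested, and their counts stand against the 28.8% of all genes called with LPS. Of 7 further genes listed under sterol and isoprenoid synthesis, not all of them specific to it, 3 fell and 1 rose with LPS. Acat1, an acetoacetyl-CoA thiolase, fell by 0.20 ± 0.05 (adjusted p = 0.00701) and Lbr, a nuclear envelope protein with sterol reductase activity, by 0.20 ± 0.06 (adjusted p = 0.0164), and Nus1, of dolichol synthesis, rose by 0.25 ± 0.04 (adjusted p = 0.000176). Among 8 tested genes of sterol uptake, transport and esterification, 3 rose and 1 fell, with the lysosomal sterol carrier Npc2 at 0.53 ± 0.06 (adjusted p = 2.51e-06) and Stard3 at 0.52 ± 0.07 (adjusted p = 2.96e-05). Of 8 genes for SREBP processing and sterol-driven degradation, 1 rose, the ubiquitin ligase gene Rnf145 (0.33 ± 0.08, adjusted p = 0.00407), and 0 fell.

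In a wider list of fatty acid and lipid genes, 3 rose and 6 fell of 27 tested, a share near that of all genes. Lpin1, a phosphatidate phosphatase, fell by 1.37 ± 0.19 (adjusted p = 2.07e-05), and Cd36, a fatty acid receptor, by 0.33 ± 0.05 (adjusted p = 2.05e-05). Hilpda, a lipid droplet protein that restrains lipolysis, rose by 0.82 ± 0.12 (adjusted p = 2.55e-05). Ch25h, which makes an oxysterol that restrains SREBP cleavage, had 0 counts in the 3 controls and 3, 3 and 1 counts with LPS in control medium. It had 0, 2 and 4 counts in high glucose and 0, 0 and 7 in high fructose, too few to pass the filter.

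**Figure D4:**
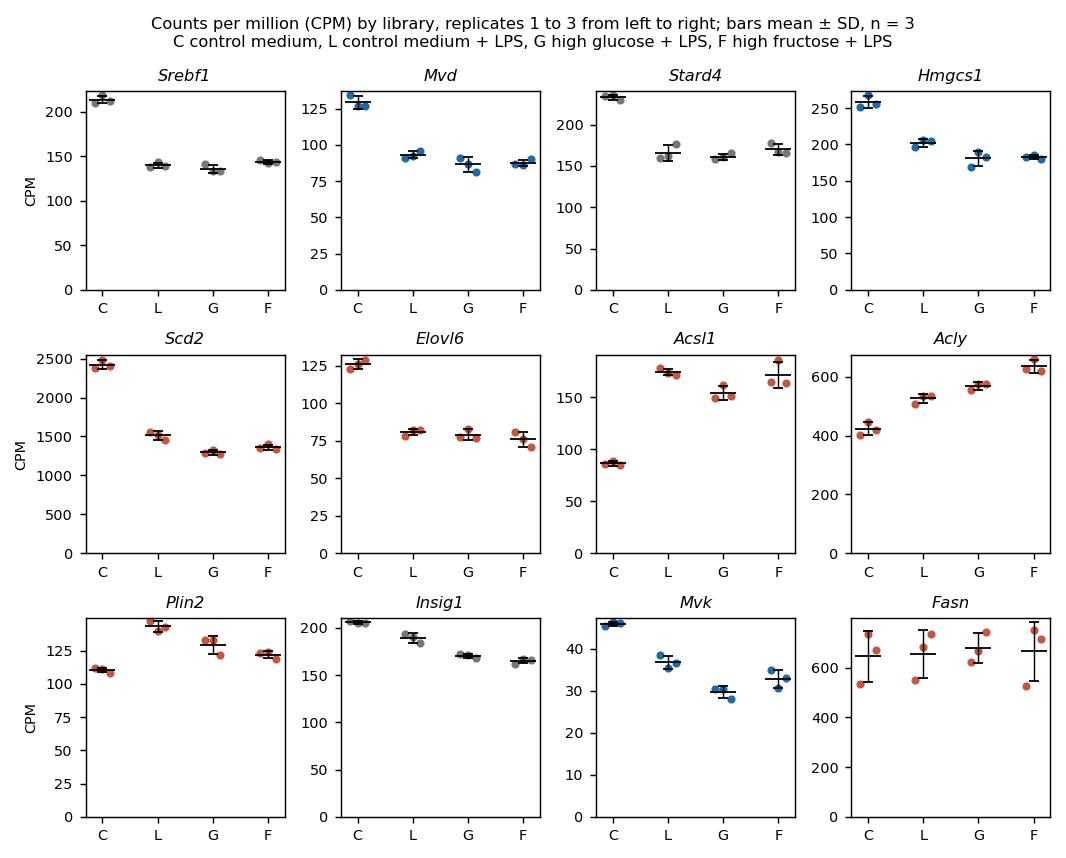
CPM in each of the 12 libraries for 12 members (points, replicates 1 to 3 from left to right in each group; bars are the mean ± SD, n = 3). The LPS step is downward for Srebf1, Scd2 and Elovl6 and upward for Acsl1 and Acly, while Fasn overlaps in all 4 groups.

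The sugar comparisons ask what raised glucose or raised fructose did to cells that all received LPS. High glucose and high fructose were each set against the same 3 control-medium libraries with LPS, so the 2 sets of values share those libraries. In high glucose 3 of the 40 members fell and none rose, and in high fructose 4 fell and 1 rose. Over all genes tested, 1.56% were called in high glucose (0.971% lower, 0.587% higher) and 4.91% in high fructose (2.55% lower, 2.37% higher). At an unadjusted p below 0.05 there were 14 members in high glucose, against 13.9% of all genes tested, and 8 in high fructose, against 15.5%. The median log2 fold change of the 40 was -0.09 in high glucose, where the median of all genes was 0.003, and -0.04 in high fructose, where it was -0.001.

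Among sterol enzymes in high glucose, 2 of 17 fell, and all 17 values were negative, with a median of -0.10. In 7 of the 17 the glucose libraries lay wholly below the controls, as in 9.76% of all genes. Over the 40 members, 15 were separated downward and 1 upward in high glucose (19.2% of all genes, 9.40% upward), and 10 downward and 1 upward in high fructose (20.4% of all genes, 10.0% downward and 10.4% upward). Mvk was at 38.37, 35.33 and 36.67 CPM in control medium with LPS, 30.39, 30.51 and 28.11 CPM in high glucose, and 34.91, 30.70 and 32.95 CPM in high fructose. Both sugar groups lay below the control libraries. The glucose difference was -0.31 ± 0.07 (edgeR adjusted p = 0.0334), lost in each of the 6 fits that left out 1 library (0.0549 to 0.16), and the fructose difference was -0.16 ± 0.07 (adjusted p = 0.259).

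Hsd17b7 was at 108.2, 106.1 and 110.4 CPM in control medium with LPS, 90.57, 95.75 and 87.91 CPM in high glucose, and 100.4, 104.0 and 103.8 CPM in high fructose. The glucose libraries were lowest and overlapped neither of the other groups. The glucose difference was -0.24 ± 0.05 (adjusted p = 0.0237) and was called in 1 of 6 fits leaving out a library, the one without the second glucose library (0.0681 to 0.133 in the other 5). In high fructose it was -0.08 ± 0.05 (adjusted p = 0.56).

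In high fructose 1 of 17 sterol enzymes fell, and the median was -0.05. Dhcr7 was at 102.1, 95.30 and 92.92 CPM in control medium with LPS, 85.74, 86.14 and 84.77 CPM in high fructose, and 87.88, 91.95 and 90.20 CPM in high glucose. The fructose libraries were below both other groups, at -0.18 ± 0.05 against control medium (adjusted p = 0.0495), a call that held in 1 of 6 fits leaving out a library, the one without the third control library with LPS (0.0896 to 0.236 in the other 5). The glucose value was -0.10 ± 0.05 (adjusted p = 0.361). Hmgcs1 was not called in either comparison, at -0.16 ± 0.05 with glucose (adjusted p = 0.132) and -0.15 ± 0.05 with fructose (adjusted p = 0.112).

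**Figure D5:**
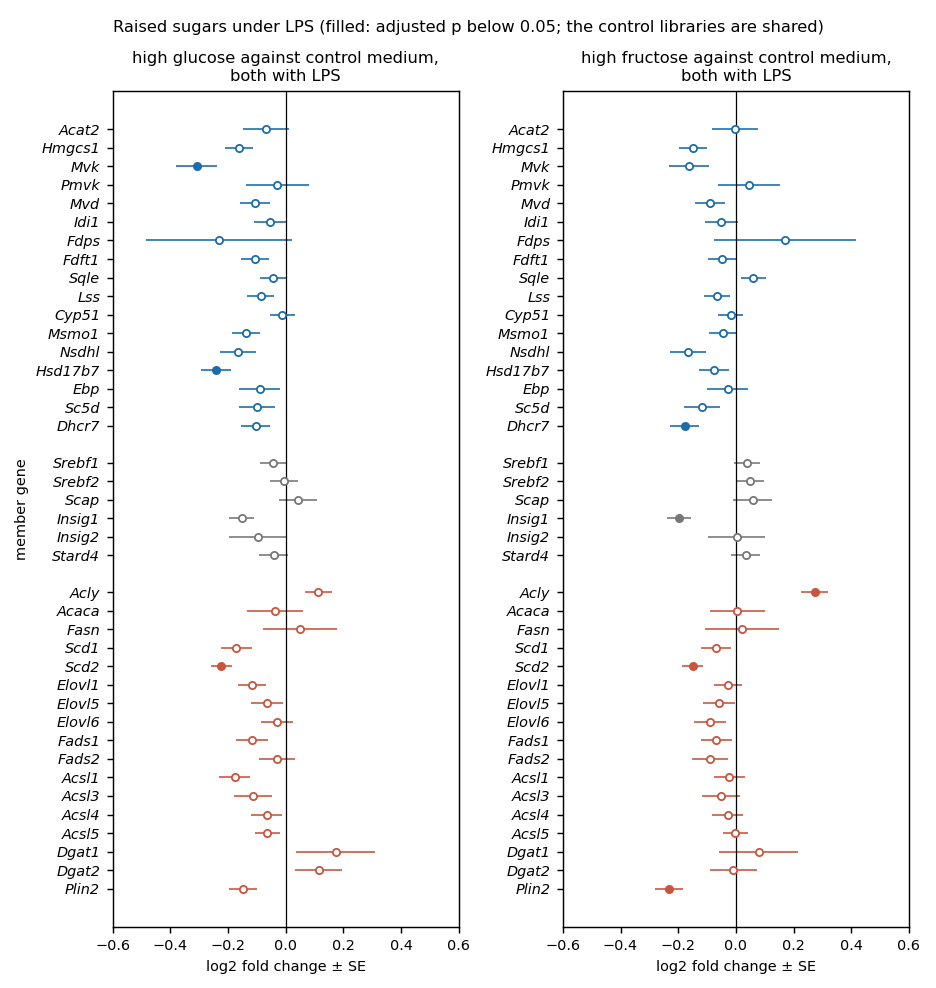
Log2 fold change (± SE) of each member in high glucose (left) and high fructose (right), each against control medium with LPS; filled points have an edgeR adjusted p below 0.05, and both panels use the same 3 control libraries. Sterol enzymes lie left of 0 in high glucose, and Acly is the one filled point to the right, in high fructose at 0.27.

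Among the regulators, Insig1 was at 193.8, 190.8 and 183.5 CPM in control medium with LPS, 162.0, 167.1 and 166.5 CPM in high fructose, and 172.3, 171.0 and 167.6 CPM in high glucose. Both sugar groups were below the control libraries, and the fructose libraries were below those of glucose. The fructose difference was -0.20 ± 0.04 (adjusted p = 0.00916, or 0.052 without the first control library with LPS). The glucose difference was -0.15 ± 0.04 (adjusted p = 0.0924). Thus 1 of 6 regulators fell in high fructose and 0 of 6 were called by edgeR in high glucose, where 1 had an unadjusted p below 0.05, DESeq2 called 1 (Insig1, adjusted p = 0.0124) and limma called 0. Srebf1 stayed uncalled in both comparisons (-0.04 ± 0.05 with glucose, adjusted p = 0.747, and 0.04 ± 0.04 with fructose, adjusted p = 0.773), as did Srebf2, Scap, Insig2 and Stard4.

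Acly was the single member that rose in a sugar comparison. It was at 508.3, 535.6 and 534.8 CPM in control medium with LPS, 554.8, 575.8 and 576.7 CPM in high glucose, and 626.5, 661.4 and 620.0 CPM in high fructose. The 3 groups were ordered without overlap, control medium lowest and fructose highest. The fructose difference was 0.27 ± 0.05 (adjusted p = 0.00114) and was called in all 6 fits leaving out a library (adjusted p up to 0.0112). The glucose difference was 0.11 ± 0.05 (adjusted p = 0.275). Fasn, at 0.02 ± 0.13 with fructose (adjusted p = 0.971) and 0.05 ± 0.13 with glucose (adjusted p = 0.917), and Acaca, at 0.01 ± 0.10 (adjusted p = 0.989) and -0.04 ± 0.10 (adjusted p = 0.919), were not called.

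Scd2 fell in both sugar comparisons. It was at 1557, 1524 and 1456 CPM in control medium with LPS, 1283, 1328 and 1273 CPM in high glucose, and 1348, 1399 and 1343 CPM in high fructose. Both sugar groups lay below the controls, and glucose lay below fructose. The glucose difference was -0.22 ± 0.04 (adjusted p = 0.00453; up to 0.0364 when a library was left out). The fructose difference was -0.15 ± 0.04 (adjusted p = 0.0208). It was not called without the first or second control library with LPS (0.11 and 0.0988) or without the first or the third fructose library (0.0706 and 0.0812). Nor did limma call it (adjusted p = 0.0556 on log2(FPKM + 1) and 0.0584 on log2(FPKM + 0.1)). Scd1 was not called, at -0.17 ± 0.05 with glucose (adjusted p = 0.137) and -0.07 ± 0.05 with fructose (adjusted p = 0.61).

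Plin2 was at 147.4, 139.6 and 142.7 CPM in control medium with LPS, 123.2, 123.9 and 118.8 CPM in high fructose, and 133.0, 133.0 and 121.7 CPM in high glucose. Sugar libraries were all lower than the controls, yet above the 108.5 to 111.8 CPM of the cells without LPS. The fructose difference was -0.23 ± 0.05 (adjusted p = 0.00732) and was called in all 6 fits leaving out a library (adjusted p up to 0.0451). The glucose difference was -0.15 ± 0.05 (adjusted p = 0.167). In total the fatty acid branch had 1 of 17 lower in high glucose (median -0.06) and 1 higher and 2 lower in high fructose (median -0.03).

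The remaining members were not called in either sugar comparison. Those were Acat2, Pmvk, Mvd, Idi1, Fdps, Fdft1, Sqle, Lss, Cyp51, Msmo1, Nsdhl, Ebp and Sc5d in the sterol branch, and Elovl1, Elovl5, Elovl6, Fads1, Fads2, Acsl1, Acsl3, Acsl4, Acsl5, Dgat1 and Dgat2 in the fatty acid branch. Acsl1, the gene that rose most with LPS, was at 149.6, 161.3 and 151.1 CPM in high glucose, below the 171.7 to 177.7 CPM of control medium with LPS (-0.18 ± 0.05, adjusted p = 0.134). In high fructose it was at 164.4, 185.5 and 163.9 CPM, which overlapped the controls (-0.02 ± 0.05, adjusted p = 0.906). Of the neighbouring genes, Lipa, the lysosomal acid lipase that frees cholesterol from its esters, fell in high glucose (-0.21 ± 0.05, adjusted p = 0.0245) and in high fructose (-0.23 ± 0.05, adjusted p = 0.0039). Plin3, another lipid droplet coat gene, rose in high fructose (0.23 ± 0.05, adjusted p = 0.00604).

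Of 19 tested markers of cell types other than microglia, 2 were called in high fructose, both higher, against 2.37% of all genes tested. Tubb3, a tubulin gene on the neuron list, rose from a mean of 12.7 to 30.6 CPM (1.27 ± 0.12, adjusted p = 2.11e-06). The 8 neuron markers summed to 43.9 to 53.0 CPM against 27.9 to 31.9 CPM in control medium with LPS, a difference that lay in Tubb3. Map2, the other abundant neuron marker, was at 16.2 against 16.6 CPM, and the defining markers Rbfox3 and Gad1 had at most 6 and 2 counts in any library. Gja1, a gap junction gene on the astrocyte list, rose from 75.5 to 92.9 CPM (0.30 ± 0.06, adjusted p = 0.00493). The 6 astrocyte markers summed to 114 to 118 CPM against 94.1 to 103 CPM. Aldh1l1, the other abundant astrocyte marker, was at 22.1 against 22.7 CPM, while Gfap and Aqp4 were below 1 CPM in every library. Among 11 tested microglia markers 2 were lower in each sugar comparison and 0 higher. Of all genes tested, 0.971% were lower in high glucose and 2.55% in high fructose. The part of these reads in the sugar results was not tested.

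Glucose and fructose are isomers, an aldose and a ketose, and were given at the same stated concentration and time. In the direct comparison 0 of 40 members were called by edgeR, against 3.72% of all genes tested (1.84% higher in fructose, 1.88% lower). The libraries did not overlap for 9 members higher in fructose and 2 lower, against 17.9% of all genes (9.29% higher, 8.64% lower). At an unadjusted p below 0.05 there were 4 members, against 15.6% of all genes tested, DESeq2 called 1 (Acly, adjusted p = 0.0115) and limma called 0. The median difference, fructose minus glucose, was 0.05 over the 40 members and -0.002 over all genes, and 29 of the 40 were positive. Acly had the smallest p: its fructose libraries lay above its glucose libraries by 0.16 ± 0.05 (95% interval 0.06 to 0.26, edgeR adjusted p = 0.0666). Hsd17b7 was higher in all fructose libraries by 0.17 ± 0.05 (95% interval 0.06 to 0.28, adjusted p = 0.0928). For Acsl1 the difference was 0.15 ± 0.05 (95% interval 0.04 to 0.27, adjusted p = 0.148), with no overlap between groups.

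Sqle was at 352.6, 377.5 and 357.2 CPM in high glucose and 385.2, 402.5 and 382.9 CPM in high fructose. Those groups did not overlap, at 0.11 ± 0.04 (95% interval 0.01 to 0.20, adjusted p = 0.241). Of the members called in one sugar comparison and not in the other, Acly and Hsd17b7 are given above. Mvk differed by 0.15 (95% interval -0.003 to 0.30), Dhcr7 by -0.07 (-0.18 to 0.03), Insig1 by -0.04 (-0.14 to 0.05) and Plin2 by -0.08 (-0.19 to 0.02). The fructose libraries lay wholly above those of glucose for Mvk and wholly below them for Dhcr7 and Insig1, and the Plin2 libraries overlapped. Scd2, called in both, differed by 0.07 (-0.003 to 0.15). The intervals of Mvk, Dhcr7, Insig1, Plin2 and Scd2 all include 0, those of Mvk and Scd2 only just. They leave room for differences of either sign and do not show that the sugars acted alike.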

How the data were processed

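The authors deposited raw read counts per gene, made with featureCounts 1.5.0-p3 on mm10 per the submitters' processing notes. The aligner, annotation release and strand setting were not given in the sources used here. The authors also deposited FPKM values, which equalled count over gene length and 1 constant per library (largest deviation 1.18e-07% at 200 counts or more); FPKM was used only to compare genes and in limma.

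The main test was that of edgeR 4.0.16 under R 4.3.3, with filterByExpr, TMM scaling and 1 quasi-likelihood model of all 12 libraries with 1 coefficient per group (8 residual degrees of freedom). P-values were adjusted by Benjamini-Hochberg over 12766 genes and called below 0.05. CPM values carry the TMM factors. Intervals are 95%. The script was tested on simulated data. Similar genes were searched with BLAST 2.17.0+ (98% identity over 75 bases). DESeq2 1.42.0, limma 3.58.1 on log2(FPKM + 1) and log2(FPKM + 0.1), other scalings, no filter, 2-group fits, a replicate block and leaving out each library were alternatives.

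All 40 members are named; every library's value is given for members called in a sugar comparison and, with LPS, for up to 6 per branch with the smallest adjusted p plus the largest rise and fall, and for the 4 smallest p where none was called. Values added outside this rule (Insig1, Srebf2, Acaca and Fasn with LPS) were chosen after they were seen. Up to 3 genes of each neighbour list are named, plus Ch25h and Tnf. Some genes of these lists are not reported here and were left out of their counts. The members and lists were chosen with earlier results of these data known.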

Additional observations from a re-analysis of the deposited data

How the results depend on the processing

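With LPS the sterol count was 12 to 14 when 1 library was left out (14 in the full fit), with 0 higher in every setting run, and the fatty acid count was 11 to 12 (12 in the full fit). In high glucose the sterol count of 2 became 1 with only the 2 groups compared and 0 to 1 when a library was left out. It was larger with DESeq2 and with the replicate block, which also called Hmgcs1. The fatty acid count of 1 became 2 with DESeq2 and 3 with the replicate block, and was 1 in every fit leaving out a library. In high fructose the sterol count of 1 became 0 without a filter on low counts, 0 with only the 2 groups compared, 2 with DESeq2 and 2 with the replicate block. When a library was left out it was 0 to 1, while the fatty acid count of 3 was 2 to 3. Scd2 was not called there by limma. Between the sugars the fatty acid count of 0 became 1 with DESeq2 and 1 with the replicate block, Acly in both. The causes were not tested. No member's called value changed sign in any setting.

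The labels do not say that a replicate number marks a shared culture or day, and the libraries were not treated as paired because same-numbered pairs did not all correlate above 0.1. Their deviations correlated at -0.19 to 0.24 over genes (median 0.02, 18 pairs), those of pairs with different numbers at -0.23 to 0.19 (median -0.005, 36 pairs), and 7 of 12 libraries correlated best with a library of their own number, which is a hint from the data and not from the design. With the replicate block, Acaca was called with LPS (-0.21, adjusted p = 0.00149), Hmgcs1, Insig1, Scd1 and Acsl1 were also called in high glucose (0.0382, 0.0449, 0.0236 and 0.0378), Hmgcs1 in high fructose (0.0381) and Acly between the sugars (0.00972). DESeq2 also called Hmgcs1, Insig1 and Scd1 in high glucose and Hmgcs1 in high fructose. Over all genes the high-glucose count of 199 was 427 without a filter, 335 with DESeq2, 126 and 118 with limma, 391 with the block and 67 to 177 with a library left out; between the sugars 475 became 247 with only the 2 groups and 735 with the block. Library totals alone moved the median of all genes with LPS by -0.09, and then also called Pmvk (0.0352), Sc5d (0.00709), Srebf2 (0.0377) and Acaca (0.0232), all lower. With 3 libraries per group, and values below about 10 CPM for Fdps, small differences may have been missed.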
